A study of Canis lupus familiaris with 17 samples.

Results

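Chemokine receptors are the cell surface receptors that white blood cells use to read the small secreted proteins called chemokines. The 8 members described here, CCR7, CCR6, CCR4, CCR2, CXCR3, CXCR4, CXCR5 and CX3CR1, were chosen by gene symbol and not by any measured value, and each was found once among the 20257 genes of the count tables. They were measured in 17 dogs by droplet single-cell RNA sequencing of the 3′ ends of transcripts, with unique molecular identifiers (UMIs) that count each captured transcript once. The 7 healthy dogs (H1 to H7) were clinically healthy, client-owned and middle-aged, of varying breeds and both sexes. The 10 dogs with osteosarcoma (OS1 to OS10), a malignant tumor of bone, carried a spontaneous primary tumor and had not been treated when blood was drawn. By the study's demographics, OS1, OS2, OS4, OS5 and OS10 belonged to an older age class that held no healthy dog, so age and disease cannot be fully told apart. All dogs are labelled wild type, none carried a transgene or received an agent, and each library was made from the peripheral blood leukocytes of 1 dog after density gradient centrifugation and red cell lysis.

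A chemokine receptor is a G protein-coupled receptor that steers a cell up a gradient of its ligand, so the receptors on a circulating leukocyte set which tissues it can enter. CCR7 and CXCR5 guide cells into lymph nodes and B cell follicles, CXCR4 holds cells in or draws them to bone marrow through CXCL12, and CCR6, CCR4, CCR2, CXCR3 and CX3CR1 serve entry into inflamed or barrier tissue and patrolling along vessel walls. In human and mouse blood they are among the usual markers that separate naïve from memory T cells and one helper T cell type from another.

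The libraries held 1332 to 7748 cell barcodes and 7740230 to 56510134 UMIs. As a share of the smaller library, the largest overlap between a pair of libraries was 0.3754% (5 barcodes, OS2 and OS3). In number of barcodes it was 22 (OS1 and OS2, 0.3286% of the smaller library). Cells were clustered without any chemokine or chemokine receptor gene, so that no member helped to define the classes in which it was measured. Class names stand for clusters that were like the named cell type by other markers, with thresholds set after the clusters were seen. The likeness was weak for some clusters. The naïve CD8 cluster had 2 of its own markers among its 10 top genes and 2 of another class. A Th2 cluster of 533 cells had 1 and 1. The 8 main classes were naïve CD4 T cells (9310 cells), all other CD4 T cells (16691 cells, here non-naïve CD4 T cells), naïve CD8 T cells (2805 cells), effector CD8 T cells (11263 cells), NK cells (402 cells), B cells (6810 cells), monocytes (14452 cells) and neutrophils (5061 cells, of which 33.9% came from H7). Each class had at least 25 cells in all 17 dogs, except NK cells, which reached that number in 3 healthy dogs and 3 dogs with osteosarcoma. The effector CD8 class included clusters led by GZMK, one of them of 620 cells, and the study lists GZMK as a marker of memory CD8 T cells. Effector and memory CD8 T cells were therefore not separated here. The monocyte class pooled a cluster of 659 cells led by interferon-response genes, with 0 monocyte markers among its 10 top genes. It also held a cluster of 3496 cells high in IL1B, IL18, KCNJ2 and MEFV. The study lists these genes for monocytic myeloid-derived suppressor cells, which it found increased in osteosarcoma as a percentage of all leukocytes. Comparisons of monocytes between the groups did not separate these cells. The defining markers were where the names placed them. CD3E, a chain of the T cell receptor complex, averaged 860 to 919 counts per 1e6 UMIs (CPM) in the 4 T cell classes, MS4A1 (CD20) averaged 263 CPM in B cells, LYZ (lysozyme) 20659 CPM in monocytes, IL1R2 1236 CPM in neutrophils and KLRF1 146 CPM in NK cells. CD4 averaged 4025 CPM in neutrophils, which carry CD4 in the dog. NK cells were less clean, as CD3E ranged from 0 to 858 CPM over the 6 dogs.

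A level below is the sum of a gene's UMIs over the cells of 1 dog and class, in CPM of all UMIs in that sum, and a difference between classes is the mean within-dog difference of log2(CPM + 1). A 3′ count does not scale with transcript length, but capture differs between genes, so levels are set side by side between classes and not between receptors. In sums over cells, fewer cells that hold a transcript and less transcript per cell cannot be told apart. Neighbouring classes in the order of each receptor were compared within dogs by an exact two-sided sign-flip permutation test, with Benjamini-Hochberg adjustment over the 56 neighbour pairs of the 8 receptors, and 17 of the 56 differed. The smallest p that this test can give is 1.53e-05 with 17 dogs and 0.03125 for the 6 dogs with NK cells.

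**Figure D1:**
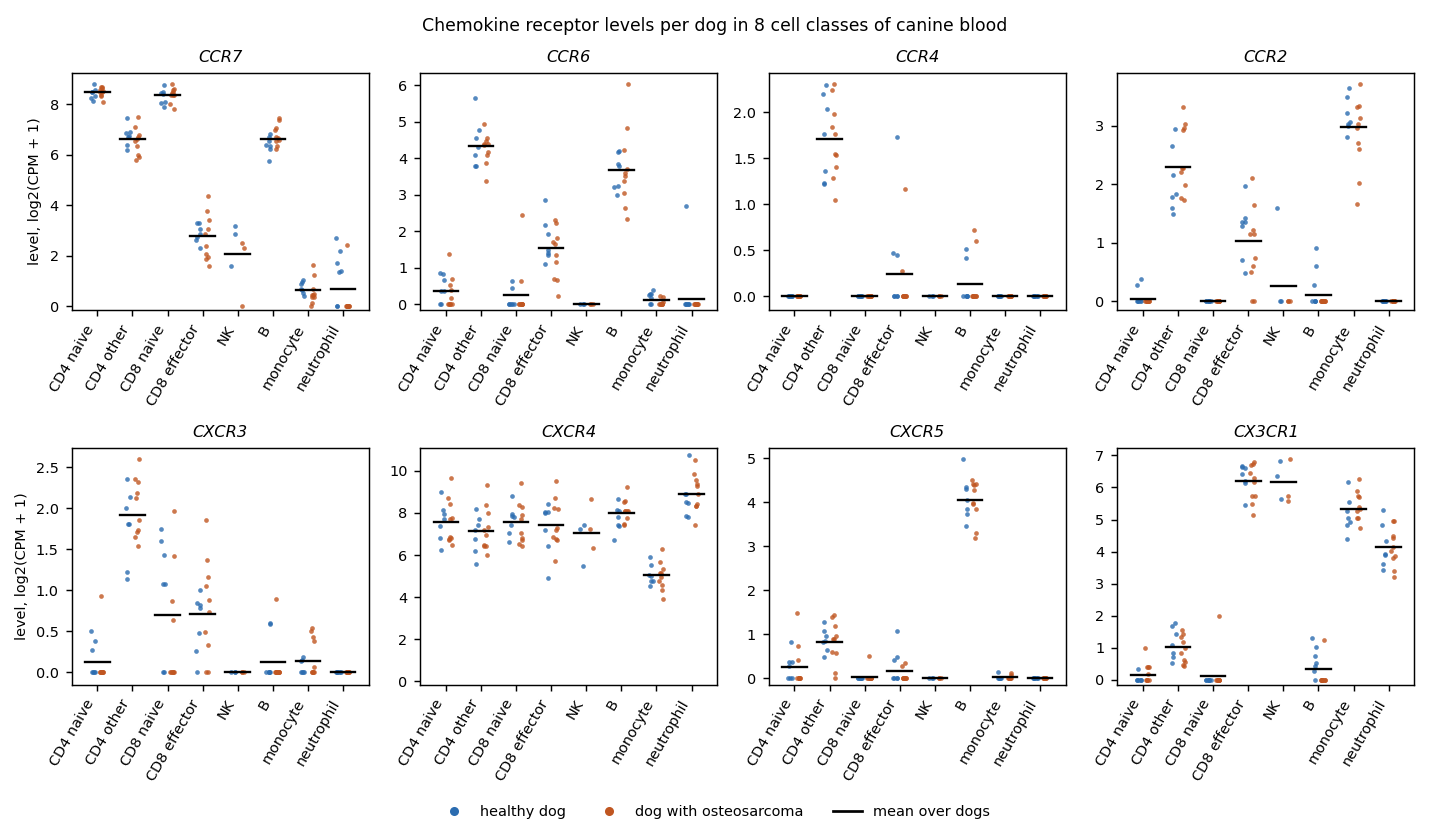
Level of each of the 8 receptors as log2(CPM + 1) (vertical axis) in 8 cell classes (horizontal axis), with 1 point per dog, healthy dogs in blue and dogs with osteosarcoma in orange, and a black line at the mean. CD4 other stands for non-naïve CD4 T cells. CCR7 was highest in naïve T cells, CXCR5 in B cells and CX3CR1 in effector CD8 T cells and NK cells, and blue and orange points overlapped for every receptor.

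CCR7 (ENSCAFG00000030300), the lymph node homing receptor for CCL19 and CCL21, was highest in naïve T cells. In naïve CD4 T cells it averaged 356 ± 47.6 CPM (SD, n = 17), with a lowest value of 269, a median of 360 and a highest value of 441 CPM. Naïve CD8 T cells averaged 332 ± 63.9 CPM and ranged from 222 to 442 CPM. The step between the naïve classes was small, 0.12 on the log2 scale in favor of CD4, and passed the exact permutation test with 13 of 17 dogs in that direction (adjusted p = 0.0175). B cells averaged 102 ± 31.5 CPM and non-naïve CD4 T cells 103 ± 35.8 CPM. These 2 classes did not differ (7 of 17 dogs higher in B cells, adjusted p = 1), and both were below naïve CD4 T cells in every dog. Effector CD8 T cells averaged 6.87 ± 4.40 CPM, below non-naïve CD4 T cells by 3.82 log2 units in 17 of 17 dogs (exact permutation test, adjusted p = 0.000107). Myeloid cells were close to 0, at 1.10 CPM in neutrophils and 0.626 CPM in monocytes.

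The share of cells with a CCR7 UMI showed how much of this was visible cell by cell. After every cell was thinned to 1000 UMIs, 29.5% of 9273 naïve CD4 T cells held at least 1 CCR7 UMI (95% exact Clopper-Pearson interval 28.6% to 30.5%), and 79.7% did before thinning, at a median depth of 5342 UMIs. In neutrophils, a class taken to lack the gene, the share was 0.102% after thinning and 0.217% before, at a median depth of 1662 UMIs. The intervals of all shares cover counting error only.

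CXCR5 (ENSCAFG00000012439), the receptor for CXCL13 that brings B cells and follicular helper T cells into follicles, was a B cell transcript in canine blood. B cells averaged 16.4 ± 5.62 CPM (n = 17), from 8.08 to 30.6 CPM with a median of 15.5 CPM, and these values rested on 480 UMIs. Non-naïve CD4 T cells averaged 0.840 CPM, lower by 3.22 log2 units in 17 of 17 dogs (exact permutation test, adjusted p = 0.000107), and naïve CD4 T cells averaged 0.254 CPM, which was lower again (adjusted p = 0.0201). No CXCR5 UMI was seen in NK cells or neutrophils. The thinned share in B cells was 1.85% (95% interval 1.54% to 2.20%) against 0 of 4886 neutrophils, which allows a share of up to 0.0614% of cells with a UMI (a one-sided limit of 3 counts; the two-sided exact interval ends at 0.0755%). Within B cells, 7 clusters averaged from 7.46 to 30.6 CPM of CXCR5, with ranges over dogs that overlapped.

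CXCR4 (ENSCAFG00000005109), the receptor for CXCL12, was the member with no clear home. Neutrophils averaged 581 ± 430 CPM (n = 17), with a lowest value of 173, a median of 473 and a highest value of 1711 CPM. B cells averaged 271 ± 117 CPM and were lower than neutrophils in 15 of 17 dogs, by 0.92 log2 units (exact permutation test, adjusted p = 0.00427). The 4 T cell classes averaged 176 to 241 CPM and NK cells 167 CPM (n = 6), and no neighbouring pair from B cells down to NK cells differed (adjusted p from 0.109 to 0.944). Monocytes had the lowest level, 34.7 ± 15.9 CPM, below NK cells in 6 of 6 dogs, where 6 dogs could not pass the adjusted threshold (exact permutation test, p = 0.03125, adjusted p = 0.0972). The order depended on the scale. Neutrophils carried little RNA, and per 100 cells they held 97.0 CXCR4 UMIs against 111 in B cells, 160 in naïve CD4 T cells and 198 in naïve CD8 T cells. After thinning, 29.3% of neutrophils held a CXCR4 UMI (95% interval 28.0% to 30.6%) against 3.07% of 261 erythrocyte-like cells, which are taken to lack the gene and of which 83.5% came from OS1 (before thinning 38.5% and 14.9%, at median depths of 1662 and 13851 UMIs).

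CX3CR1 (ENSCAFG00000031104), the receptor for fractalkine on inflamed vessel walls, marked the cytotoxic and the monocyte classes. Effector CD8 T cells averaged 76.7 ± 24.5 CPM (n = 17, 34.2 to 111 CPM with a median of 78.3), and NK cells averaged 76.4 ± 32.2 CPM (n = 6). These did not differ, with 3 of 6 dogs higher in either direction (exact permutation test, adjusted p = 1). Monocytes followed at 41.6 ± 15.6 CPM and neutrophils at 18.4 ± 8.52 CPM, which were lower than monocytes in 17 of 17 dogs by 1.17 log2 units (adjusted p = 0.000107 in the exact permutation test). NK cells were above monocytes in 5 of 6 dogs, which did not pass (exact permutation test, p = 0.0625, adjusted p = 0.152). Effector CD8 T cells were above monocytes in 14 of 17 dogs, which was not tested. Naïve T cells and B cells were at 0.139 to 0.324 CPM and non-naïve CD4 T cells at 1.13 CPM. The thinned share was 7.80% of effector CD8 T cells (95% interval 7.31% to 8.31%) and 0.0444% of B cells (28.9% and 0.147% before thinning). Among the effector CD8 clusters present in at least 10 cells of 15 or more dogs, the level ran from 6.49 to 122 CPM, so the class average hid a wide spread. Among monocyte clusters, the one led by IL1B averaged 62.8 ± 23.1 CPM and the others 28.0 to 41.3 CPM.

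CCR2 (ENSCAFG00000013786), the receptor for CCL2 through which classical monocytes leave the bone marrow, had low levels. Among the 8 main classes it was highest in monocytes. It averaged 7.38 ± 2.65 CPM there (n = 17, 2.16 to 12.1 CPM, median 7.19, 1200 UMIs). Non-naïve CD4 T cells averaged 4.28 ± 2.20 CPM and were lower in 15 of 17 dogs by 0.70 log2 units (exact permutation test, adjusted p = 0.00460), and effector CD8 T cells averaged 1.23 CPM. No CCR2 UMI was seen in naïve CD8 T cells or neutrophils. The Th1 group of CD4 T cells, described below, averaged 8.42 CPM (n = 17). Conventional and plasmacytoid dendritic cells, which are not among the main classes, averaged 7.39 and 12.1 CPM (n = 16 and 10). None of these was tested against monocytes. At 1000 UMIs per cell 0.643% of monocytes held a CCR2 UMI, against 7.60% at their full median depth of 11359 UMIs, so most monocytes could not be called positive or negative at this depth. Reads that chemokine receptor genes of similar sequence share with CCR2 could be counted for either gene or lost.

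CCR6 (ENSCAFG00000030966), the receptor for CCL20 at mucosal surfaces, was shared by memory-type CD4 T cells and B cells. Non-naïve CD4 T cells averaged 20.4 ± 8.98 CPM (n = 17, 9.37 to 49.1 CPM, median 19.6) and B cells 14.9 ± 13.9 CPM (4.04 to 64.0 CPM, median 11.1). The T cells were higher in 14 of 17 dogs by 0.64 log2 units (exact permutation test, adjusted p = 0.0470), and the highest B cell value belonged to OS4. Effector CD8 T cells averaged 2.20 CPM, and the remaining classes were at 0.349 CPM or lower. The thinned share in non-naïve CD4 T cells was 1.72% (95% interval 1.52% to 1.93%) against 0 of 4886 neutrophils.

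CCR4 (ENSCAFG00000004658) and CXCR3 (ENSCAFG00000017146), which bind CCL17 and CCL22 and the interferon-induced chemokines CXCL9 to CXCL11, respectively, were sparse. CCR4 averaged 2.40 ± 0.985 CPM in non-naïve CD4 T cells (n = 17, 1.07 to 3.96 CPM, median 2.41) from 237 UMIs in 16691 cells. No CCR4 UMI was found in naïve CD4 T cells, naïve CD8 T cells, NK cells, monocytes or neutrophils. CXCR3 averaged 2.91 ± 1.06 CPM in non-naïve CD4 T cells (1.20 to 5.09 CPM, median 2.62, 322 UMIs), 0.841 CPM in naïve CD8 T cells and 0.741 CPM in effector CD8 T cells. For both genes non-naïve CD4 T cells were above effector CD8 T cells in 17 of 17 dogs, by 1.47 log2 units for CCR4 and by 1.20 for CXCR3 (exact permutation test, adjusted p = 0.000107 for each). The thinned share was 0.217% for CCR4 and 0.289% for CXCR3, against 0 of 14300 monocytes for CCR4 and 0 of 4886 neutrophils for CXCR3.

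CD4 T cells were split further into naïve, central memory (TCM, 2508 cells), effector memory (TEM, 2945), Th1 (4287), Th2 (3033), Th17 (1612) and regulatory (Treg, 2306) clusters, again named without chemokine receptors. CCR7 formed a staircase across them. It averaged 356 CPM in naïve cells, 273 ± 59.7 in TCM, 150 ± 46.8 in TEM, 98.0 ± 34.1 in Treg and 47.5 ± 21.3, 38.0 ± 16.8 and 37.3 ± 18.1 CPM in Th1, Th2 and Th17 cells (n = 17 each). Each of the 4 steps from naïve to Th1 held in 16 or 17 of 17 dogs (exact permutation test, adjusted over 18 neighbour pairs, largest adjusted p = 0.000183), while the Th1 and Th2 levels did not differ from each other beyond their spread, nor did those of Th2 and Th17. One of the Treg clusters held 161 ± 52.4 CPM and the other 15.2 ± 12.6 CPM, so the Treg average described neither.

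CCR6 was highest in the Th17 cluster, above each of the other 6 CD4 groups in 17 of 17 dogs. It averaged 69.2 ± 27.3 CPM in Th17 cells, with a lowest value of 36.0, a median of 60.6 and a highest value of 144 CPM over 17 dogs. TEM cells, next in order, averaged 20.5 ± 10.4 CPM and were lower in 17 of 17 dogs by 1.82 log2 units (exact permutation test, adjusted p = 9.16e-05). TCM, Treg, Th1 and Th2 cells averaged 10.4 to 16.0 CPM with no difference between neighbours, and naïve cells averaged 0.348 CPM. CCR6 is a textbook marker of Th17 cells, and the cluster was named from genes such as RORA and NTRK2. The study lists these genes together with CCR6 for its Th17-like cells, so the peak is not independent of the name.

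**Figure D2:**
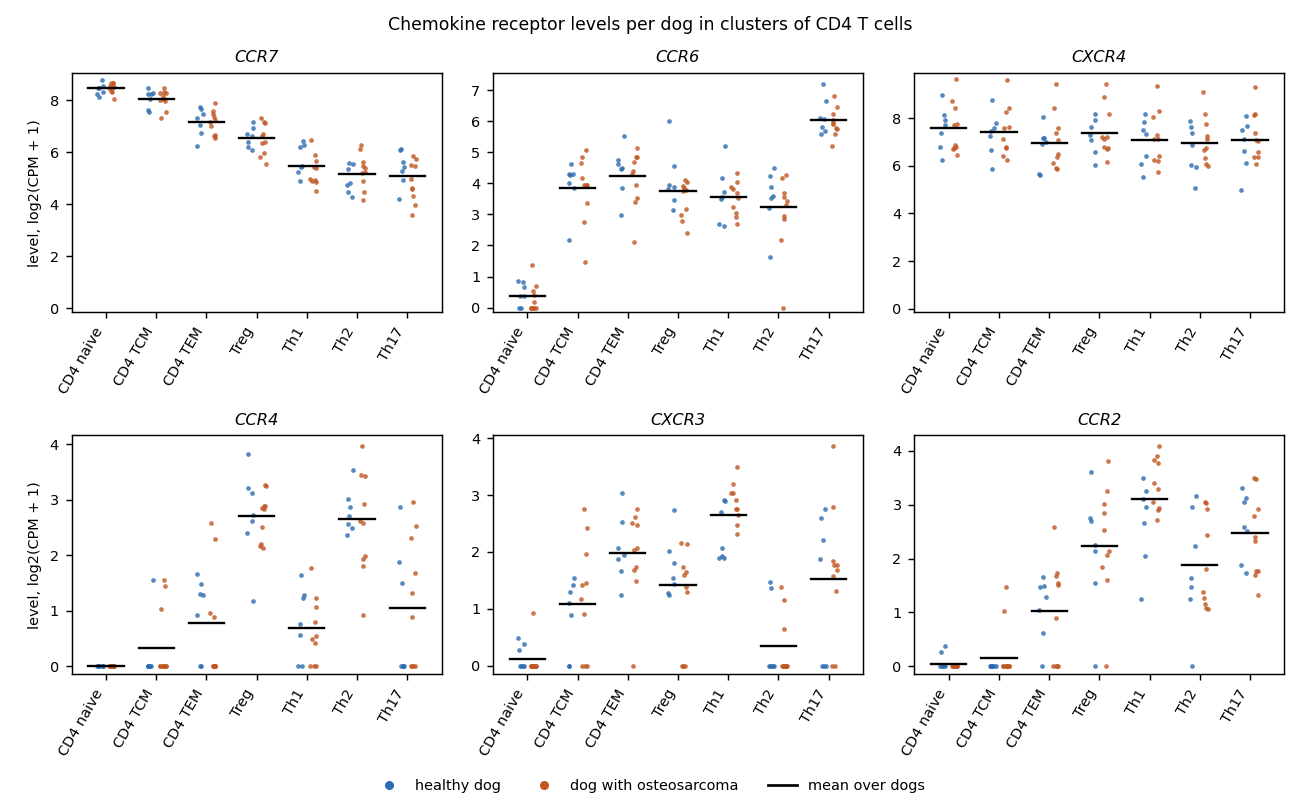
Level of 6 receptors as log2(CPM + 1) (vertical axis) in 7 groups of CD4 T cell clusters (horizontal axis), 1 point per dog, healthy in blue and osteosarcoma in orange, with the mean as a black line. CCR7 stepped down from naïve to helper clusters, CCR6 was highest in Th17 cells, CCR4 in Treg and Th2 cells and CXCR3 in Th1 cells.

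The other 5 receptors, all sparse in CD4 T cells, were ordered over the same clusters in an analysis added after the data had been seen, with adjustment over the 48 neighbour pairs of all 8 receptors. CCR4 averaged 6.05 ± 2.75 CPM in Treg and 6.07 ± 3.47 CPM in Th2 cells, which did not differ, and Th17 cells at 1.81 CPM were lower than Th2 cells in 15 of 17 dogs (exact permutation test, adjusted p = 0.00167). One Treg cluster had a CCR4 level of 11.1 ± 4.43 CPM and the other 2.08 ± 1.96 CPM. It was the first of these that had little CCR7. CXCR3 was highest in Th1 cells at 5.57 ± 2.10 CPM, above TEM cells at 3.36 CPM in 15 of 17 dogs (adjusted p = 0.00732 in the exact permutation test). CCR2 was also highest in Th1 cells, at 8.42 ± 3.87 CPM, above Th17 cells at 5.19 CPM (15 of 17 dogs, adjusted p = 0.0361, exact permutation test). CXCR5 peaked in TEM cells at 2.52 ± 2.13 CPM, above TCM cells at 0.962 CPM (12 of 17 dogs, adjusted p = 0.0205, exact permutation test), and CX3CR1 averaged 3.67 CPM in Treg and 2.31 CPM in Th1 cells, which did not differ. CXCR4 had averages from 154 to 241 CPM over the CD4 clusters, and among its neighbour pairs Treg cells were above Th1 cells in 14 of 17 dogs by 0.27 log2 units (exact permutation test, adjusted p = 0.00149 over the 18 pairs). Naïve cells were above TCM cells by 0.17 log2 units with an adjusted p of 0.0401 over the 18 pairs, which was 0.0534 over the 48 pairs (exact permutation test).

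At 1000 UMIs per cell, at least 1 member was detected in 44.5% of naïve CD4, 45.8% of naïve CD8, 25.2% of non-naïve CD4 and 26.2% of effector CD8 T cells, 30.4% of B cells, 30.2% of neutrophils, 23.4% of NK cells and 7.54% of monocytes. Of the cells with at least 1 member, 589 of 4130 naïve CD4, 215 of 1281 naïve CD8, 360 of 4183 non-naïve CD4 and 165 of 2933 effector CD8 T cells held more than 1 member. Among effector CD8 T cells with a CX3CR1 UMI, 0.229% also held a CCR7 UMI, against 0.339% of the other cells of the class. Non-naïve CD4 T cells with CCR6 held CCR7 in 8.42% of cases and those without in 8.77%. CXCR4 was found in 21.4% of naïve CD4 T cells with a CCR7 UMI and in 21.2% of those without. These shares come from sparse counts and are given as a description.

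In naïve and non-naïve CD4 and naïve CD8 T cells, dogs differed more in CXCR4 than in CCR7. In naïve CD4 T cells the highest dog had 10.9 times the CXCR4 level of the lowest, with a coefficient of variation of 78.7%, whereas for CCR7 these were 1.64 times and 13.4%. In non-naïve CD4 T cells the coefficients of variation were 81.6% for CXCR4 and 34.8% for CCR7, and in naïve CD8 T cells 68.4% and 19.3%. They were closer in effector CD8 T cells (75.7% for CXCR4 and 64.0% for CCR7) and B cells (43.1% and 30.8%), and in monocytes and neutrophils, where CCR7 was close to 0, that of CCR7 was the larger (83.4% and 161%, against 45.7% and 74.1% for CXCR4). Over the 7 classes measured in every dog, the ratio of highest to lowest CXCR4 level ran from 5.56 in monocytes to 24.7 in effector CD8 T cells. OS2 had the highest CXCR4 level in 6 of the 7 classes and the next highest in neutrophils, whereas H6 ranked from 11 to 17 of the 17 dogs. H1 ranked from 1 to 5 and OS10 from 12 to 17, so high and low dogs were found in both groups.

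**Figure D3:**
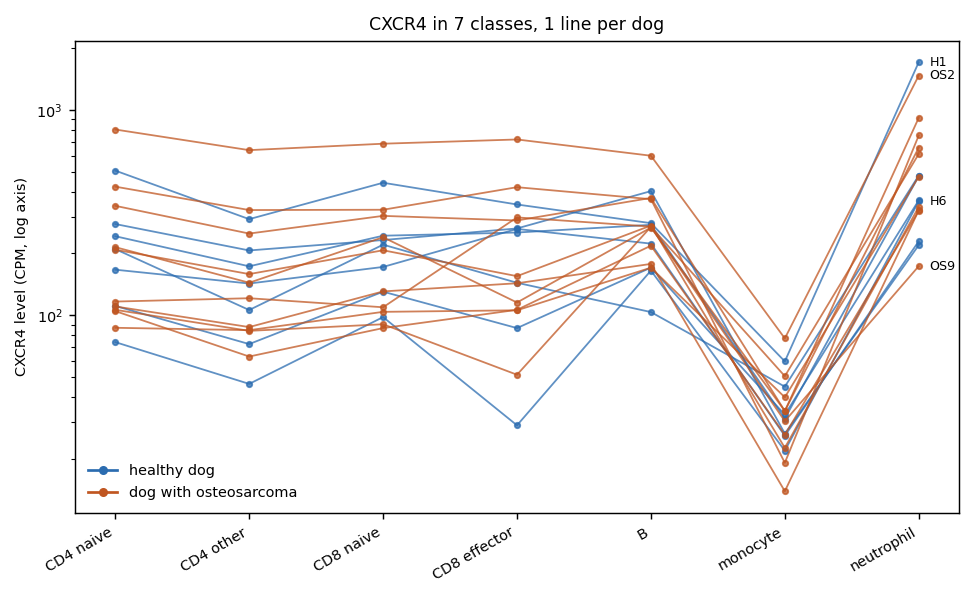
CXCR4 level in CPM (vertical log axis) in 7 cell classes (horizontal axis), with 1 line per dog, healthy dogs in blue and dogs with osteosarcoma in orange. The lines run roughly in parallel over the T cell classes, with OS2 at the top in 6 of the 7 classes and H1 at the top in neutrophils at 1711 CPM.

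A dog's CXCR4 level in one class went with its level in others. The values of a dog come from 1 library, so the classes share its blood draw, handling and sequencing, and the part of these in the result was not tested. The labels name no batch. Over 17 dogs, log2(CPM + 1) in naïve CD4 T cells correlated with that in non-naïve CD4 T cells (Pearson r = 0.96, permutation p = 1e-05, the smallest that 100000 permutations can give, adjusted p = 6.5e-05 over 13 relations; Spearman rho = 0.95, permutation p = 1e-05, adjusted p = 6.5e-05). Without OS2 and H6, the dogs farthest from the median, r was 0.94, and it was 0.96 within the healthy dogs and 0.98 within the dogs with osteosarcoma. The relation was as close with naïve CD8 T cells (r = 0.98, rho = 0.96, permutation p = 1e-05 for each) and looser with effector CD8 T cells (r = 0.83, permutation p = 4e-05, adjusted p = 0.00013; rho = 0.85, permutation p = 3e-05; 0.73 without OS2 and H6). It was looser again with B cells (r = 0.71, permutation p = 0.0013, adjusted p = 0.0035; rho = 0.80, permutation p = 0.0002; r = 0.54 without OS2 and H6) and neutrophils (r = 0.68, permutation p = 0.0026, adjusted p = 0.0057; rho = 0.56, permutation p = 0.021, adjusted p = 0.045; r = 0.59 without OS2 and H6). With monocytes it did not pass (r = 0.43, permutation p = 0.082, adjusted p = 0.13; rho = 0.31, permutation p = 0.22) and was 0.11 without OS2 and H6.

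For the other members, 1 of 7 such relations passed. CCR7 in naïve CD4 T cells correlated with CCR7 in naïve CD8 T cells (r = 0.90, permutation p = 3e-05, adjusted p = 0.00013; rho = 0.85, permutation p = 5e-05; r = 0.82 without OS4 and H1, 0.99 in healthy dogs and 0.83 in dogs with osteosarcoma). With non-naïve CD4 T cells (r = 0.53, permutation p = 0.029, adjusted p = 0.054; rho = 0.51, permutation p = 0.037; r = 0.30 without OS4 and H1, 0.59 in healthy dogs and 0.60 in dogs with osteosarcoma) and B cells (r = 0.19, permutation p = 0.45; rho = 0.37, permutation p = 0.14; r = 0.64 without OS4 and H1) CCR7 did not pass, and the latter value rested on which dogs were included. CX3CR1 in effector CD8 T cells did not pass with CX3CR1 in monocytes (r = -0.32, permutation p = 0.21; rho = -0.16, permutation p = 0.54; r = -0.31 without OS2 and H1) or in neutrophils (r = 0.40, permutation p = 0.11; rho = 0.48, permutation p = 0.051; r = 0.48 without OS2 and H1). Neither did CCR6 in non-naïve CD4 T cells with CCR6 in B cells (r = 0.11, permutation p = 0.65; rho = 0.13, permutation p = 0.61; r = 0.11 without H2 and OS9) nor CCR2 in monocytes with CCR2 in non-naïve CD4 T cells (r = 0.20, permutation p = 0.44; rho = 0.12, permutation p = 0.65; r = -0.03 without OS1 and OS2).

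The series was built to compare dogs with osteosarcoma with healthy dogs. The UMI sums were compared in each class with edgeR's quasi-likelihood test across all genes with at least 10 counts, and a gene was called when its Benjamini-Hochberg adjusted p was below 0.01 and its log2 fold change went past 0.58 either way. Of the 64 pairs of receptor and class, 36 had enough counts to be tested and 0 were called, beside 0.0021% of all genes tested over the 8 classes (2 of 95044, both in NK cells, where they were 0.0257% of the genes tested). At an unadjusted p below 0.05 edgeR gave 2 of the 36 pairs and 4.57% of all genes, and DESeq2 called 0 of the pairs and 5 of all genes, with 1 pair (2.78%) and 3.55% of all genes at an unadjusted p below 0.05. In none of the pairs were the CPM values of the groups free of overlap, beside 0.0142% to 0.0156% of all genes in 4 classes (0.0156% in naïve CD4, 0.0144% in non-naïve CD4 and 0.0153% in effector CD8 T cells and 0.0142% in monocytes), 0% in naïve CD8 T cells, B cells and neutrophils, and 9.15% in NK cells with 3 dogs in each group. A share this close to that of all genes is no result about the receptors.

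**Figure D4:**
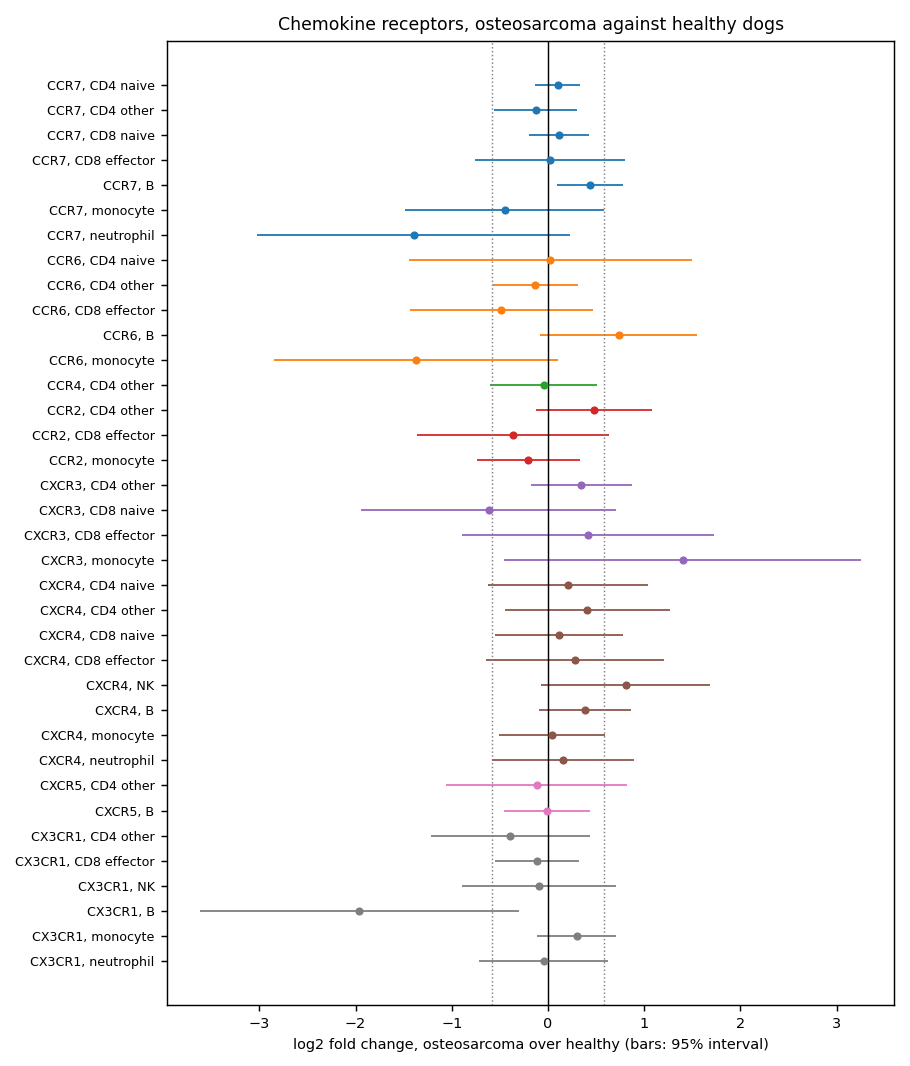
Log2 fold change of dogs with osteosarcoma over healthy dogs from edgeR (horizontal axis) for the 36 tested pairs of receptor and class (vertical axis, 1 color per receptor), with bars for the 95% interval and dotted lines at the threshold of 0.58 either way. Bars reached past 0 for all pairs other than CCR7 and CX3CR1 in B cells, and the pairs farthest from 0 had the widest bars.

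In the class where each receptor was highest, the groups lay over each other. CCR7 in naïve CD4 T cells ranged from 281 to 441 CPM in healthy dogs (median 355) and from 269 to 412 CPM in dogs with osteosarcoma (median 365). Its log2 fold change was 0.10 ± 0.12 (SE), with a 95% interval from -0.13 to 0.33 and an adjusted p of 0.986 in edgeR's quasi-likelihood test. CXCR5 in B cells ranged from 9.94 to 30.6 CPM (median 15.5) and from 8.08 to 21.8 CPM (median 16.5), with a log2 fold change of -0.01 ± 0.23, interval -0.45 to 0.43. CX3CR1 in effector CD8 T cells ranged from 42.9 to 101 CPM (median 84.8) and from 34.2 to 111 CPM (median 74.9), with a log2 fold change of -0.12 ± 0.22, interval -0.55 to 0.32. The interval of each of these 3 receptors lay within a 2-fold change either way. Those of the other members in their highest classes, described next, did so too, but each reached nearer to that limit.

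CCR6 in non-naïve CD4 T cells ranged from 12.8 to 49.1 CPM in healthy dogs (median 18.8) and from 9.37 to 29.9 CPM in dogs with osteosarcoma (median 19.7), with a log2 fold change of -0.13 ± 0.23 (interval -0.58 to 0.31). Without H2, the healthy dog with the highest value, the sign turned to 0.07. CCR4 in the same class ranged from 1.33 to 3.93 CPM and from 1.07 to 3.96 CPM (log2 fold change -0.05 ± 0.28), and CXCR3 from 1.20 to 4.12 CPM and from 1.92 to 5.09 CPM (log2 fold change 0.35 ± 0.27, interval -0.18 to 0.87). CCR2 in monocytes ranged from 6.04 to 11.6 CPM (median 7.35) in healthy dogs and from 2.16 to 12.1 CPM (median 6.97) in dogs with osteosarcoma, with a log2 fold change of -0.21 ± 0.27 (interval -0.74 to 0.33). Adjusted p values of these 4 receptors in edgeR's quasi-likelihood test were between 0.914 and 1.00.

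CXCR4 in neutrophils was the least well determined. Healthy dogs ranged from 219 to 1711 CPM with a median of 363, and dogs with osteosarcoma from 173 to 1472 CPM with a median of 542. The highest values, H1 and OS2, belonged to different groups. The log2 fold change was 0.16 ± 0.38, with an interval from -0.58 to 0.90 and an adjusted p of 1.00 in edgeR's quasi-likelihood test. It was 0.89 without H1, -0.15 without OS2 and -0.34 with age class as a covariate, so single dogs and the age term decided its size and sign. The fitted sign was positive in 8 of the 8 classes, from 0.04 to 0.81, but the classes share the same dogs and no class passed the test. The largest value, in NK cells, had an unadjusted p of 0.0830 with 3 dogs in each group in edgeR's quasi-likelihood test.

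**Figure D5:**
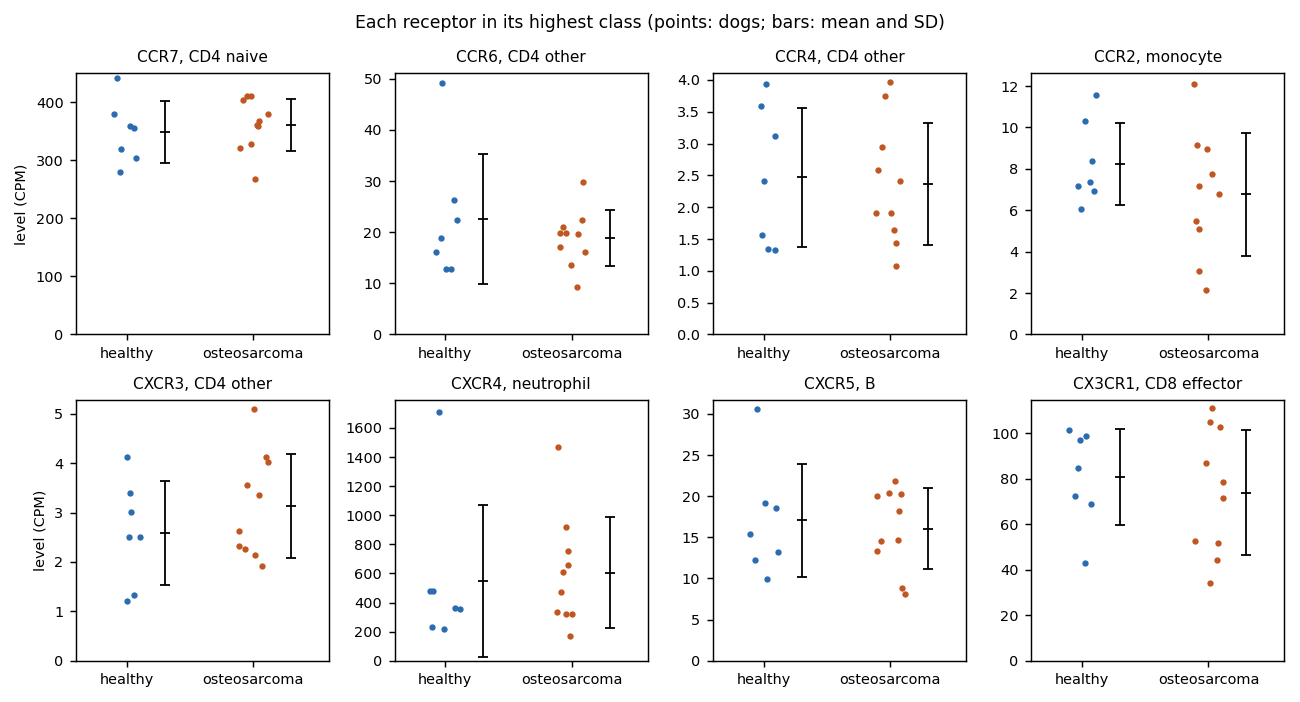
Level in CPM (vertical axis, from 0) of each receptor in the class where it was highest, for healthy dogs in blue and dogs with osteosarcoma in orange (horizontal axis), with 1 point per dog and the mean and SD in black. The groups overlapped for all 8 receptors, and H1 at 1711 CPM stood apart in the CXCR4 panel.

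The smallest p among the other classes belonged to CCR7 in B cells. Healthy dogs ranged from 52.5 to 113 CPM with a median of 83.1, and dogs with osteosarcoma from 74.8 to 173 CPM with a median of 103, so the groups overlapped, with the dogs with osteosarcoma reaching higher. The log2 fold change was 0.44 ± 0.18, with an unadjusted p of 0.0205 and an adjusted p of 0.977 in edgeR's quasi-likelihood test. CX3CR1 in B cells followed (log2 fold change -1.96 ± 0.84, adjusted p = 0.977 in edgeR), but it rested on 10 UMIs in all dogs together, and B cells are the class taken to lack that gene. Elsewhere the log2 fold changes ran from -1.39 to 0.44 for CCR7, from -1.37 to 0.73 for CCR6, from -0.36 to 0.48 for CCR2 and from -0.62 to 1.40 for CXCR3, with smallest unadjusted p values in edgeR's quasi-likelihood test of 0.0834 for CCR6, 0.136 for CCR2 and 0.154 for CXCR3. The values of -1.39 for CCR7 in neutrophils, -1.37 for CCR6 in monocytes and 1.40 for CXCR3 in monocytes rested on few cells. Before thinning, 11, 13 and 18 cells of these classes held a UMI of the gene. CCR4 could be tested in non-naïve CD4 T cells only, and CXCR5 besides B cells in the same class (log2 fold change -0.12 ± 0.48, unadjusted p = 0.807 in edgeR).

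The share of cells with a UMI was compared as well. At 1000 UMIs per cell, 19 of the 64 pairs had the gene in at least 1% of cells, and 0 of them were called between groups by a two-sided exact permutation test of ranks adjusted over all genes, beside 0% of all genes (0 of 55590). The smallest p of this test is 0.000103 with 7 and 10 dogs and 0.1 with the 3 and 3 dogs of NK cells, so a single gene could not pass the adjustment over the 5809 to 7305 genes tested in a class, while many genes changed together could, as in the simulated data. The absence of calls therefore says little about a single receptor. Of the 17 pairs outside NK cells, 0 had an unadjusted p below 0.05 in the exact permutation test, and the 2 pairs in NK cells could not reach it. Among all genes, those below 0.05 ran from 238 of 7285 in effector CD8 T cells to 429 of 6987 in monocytes. With shares that low among all genes, 0 of 17 is no result about the receptors. CCR7 was held by 22.1% to 34.6% of naïve CD4 T cells in healthy dogs (median 31.0%) and by 15.5% to 36.0% in dogs with osteosarcoma (median 29.1%; exact permutation p = 0.740, adjusted p = 0.995). CXCR4 was held by 17.3% to 60.4% (median 28.0%) and by 12.7% to 51.7% of neutrophils (median 32.0%; exact permutation p = 0.669, adjusted p = 1). In both cases the groups overlapped.

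Of 15 further chemokine receptors, 14 were in the count tables, and those described here reached 10 CPM in a main class. CCR1, which binds several inflammatory CC chemokines, averaged 542 ± 159 CPM in neutrophils, where CCRL2, an atypical receptor that binds chemerin, averaged 83.2 ± 21.1 CPM and CXCR2, a receptor for neutrophil-attracting chemokines, 26.3 ± 14.2 CPM. CCR9, the receptor for gut homing, averaged 16.4 CPM in non-naïve CD4 T cells, with 0.986 to 40.3 CPM over the dogs. Of 15 ligands of the members, 12 were in the tables and 2 reached 10 CPM, both in monocytes. These were CXCL10, a CXCR3 ligand, at 16.5 ± 15.9 CPM and CCL7, a CCR2 ligand, at 11.6 ± 20.3 CPM. Between the groups, edgeR could test 2 to 9 of the 14 further receptors in each main class, and 2 to 5 of the 12 ligands in the main classes other than NK cells and neutrophils, where no ligand had enough counts. None of those tested was called, with a smallest unadjusted p of 0.0230 among the receptors (CCR8 in non-naïve CD4 T cells, adjusted p = 0.999628 by edgeR) and of 0.000365 among the ligands (CCL19 in naïve CD8 T cells, adjusted p = 0.542 by edgeR), both named after their values were seen.

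Of 19 genes for signalling and trafficking downstream of these receptors, 17 were in the tables and 0 were called in either direction in any of the 8 classes, with median log2 fold changes per class from 0.02 to 0.26. The gene with the largest absolute log2 fold change was ARRB1, an arrestin, in naïve CD4 T cells (-0.52), RGS2 in non-naïve CD4 (-0.44) and naïve CD8 T cells (-0.72), RGS1 in effector CD8 T cells (1.09), NK cells (3.03) and neutrophils (-1.16), ARRB2, another arrestin, in B cells (0.57), and S1PR1, the receptor for lymph node exit, in monocytes (0.63). RGS1 and RGS2 are regulators that end G protein signalling. RGS1 in NK cells rested on 3 dogs in each group (adjusted p = 0.296 in edgeR's quasi-likelihood test), and S1PR1 in monocytes had an adjusted p of 0.729 in the same test.

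The genes whose pattern was most like each member were ranked by Pearson's r of log2(CPM + 1) over 125 sums per dog and class, among 9160 genes. The 125 points share libraries and cell classes, so r is a description of the class pattern. CXCR5 was closest to the B cell genes MS4A1 (r = 0.97), BOC (0.96) and CD79B (0.95). CX3CR1 was closest to RHOQ (0.93), PLCB1 (0.93) and AOAH (0.92), and CCR7 to USP13 (0.92), HHAT (0.92) and the unnamed ENSCAFG00000047167 (0.90). CCR4 was closest to GSDMA (0.90), ENSCAFG00000023788 (0.89) and IL2 (0.89), and CXCR3 to GSDMA (0.79), ENSCAFG00000028482 (0.78) and GNG3 (0.77). CCR6 was closest to ENSCAFG00000029652 (0.87), IL2RA (0.85) and WNT16 (0.84), and CCR2 to SELENOP (0.85), NIBAN2 (0.84) and ARHGAP21 (0.83). CXCR4 had the weakest likeness, with CLK4 (0.75), STK17B (0.75) and CREBRF (0.74). Between members over the same 125 points, CCR7 and CX3CR1 were the most opposed pair (r = -0.87), and CCR4 and CXCR3 the most alike (r = 0.72).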

How the data were processed

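Blood leukocytes of 7 healthy dogs and 10 dogs with osteosarcoma were run on 10x Genomics 3′ v3.1 chemistry, 1 library per dog. Per the submitters' processing notes and methods, the authors aligned reads to CanFam3.1 with Cell Ranger 7.0.0 and used Seurat; the deposited values are raw UMI counts per gene and barcode. The authors ran the counting both with introns included and with introns excluded, and the sources used here do not say which run was deposited. No genome sequence of that build was used here.

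Limits on cells followed the study (between 200 and 4500 detected genes, between 500 and 20000 UMIs, below 10% mitochondrial UMIs), which left 1239 to 7070 cells per dog; 1.05% to 6.20% of these were then removed as simulated-neighbour doublets, at an expected rate of 0.8% per 1000 barcodes. Doublets were scored with scanpy 1.11.5. Clusters were found in 2 rounds with custom code and leidenalg 0.10.2. The settings were 2000 variable genes, 30 principal components, 20 neighbours, Leiden resolution 1.0 and Harmony-type correction across dogs. All chemokine and chemokine receptor genes, the listed signalling and trafficking genes, and ribosomal and mitochondrial genes were left out of the clustering. Marker lists gave the cluster names. Platelet-like clusters, mixed with lymphocyte RNA, were not used. Counts were summed per dog and class where a dog had at least 25 cells and tested with edgeR 4.0.16 (TMM) in R 4.3.3; DESeq2 1.42.0, the study's own tool, was an alternative. Intervals of log2 fold changes are the estimate with 1.96 standard errors on either side. Thinned shares used 1000 UMIs per cell, drawn without replacement. The depth of a class ranged from 93142 UMIs (neutrophils) to 22954939 UMIs (monocytes) per dog, and sparse receptors rest on the UMI counts given with them. Each library is a separate dog, so replicates are biological.

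On simulated data, the edgeR step recovered 62% of genes changed by 1 log2 unit and 93% of those changed by 2 in non-naïve CD4 T cells (13920 genes), and 9% and 56% in NK cells (7774 genes). The detection test with 7 and 10 dogs recovered 97% of 100 genes simulated at an odds ratio of 2 and 100% of 100 at 4, among 5000 genes. It made 9 false calls. Both sets of genes were changed in the same simulation, and its spread between dogs was set and not taken from these data. The recovered shares are therefore not the power of this test for a receptor here.

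Named genes were the 8 members in all main classes, the listed further receptors and ligands with at least 10 CPM, the signalling gene of largest absolute change per class, and the 3 genes most alike to each member; 1 listed gene that met the rule is not reported here. Single clusters named in the text, the relations between dogs and the co-detection shares were chosen after values were seen. Members and lists were chosen with earlier results of these data known. Alternatives were another tool, normalization, filters, cell minimums, pseudocounts, clustering choices, age class, sex, a replicate block and leaving out each dog. The replicate numbers name different dogs, and same-numbered dogs did not deviate together (correlations of deviations from -0.32 to 0.24 over 7 numbers).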

Additional observations from a re-analysis of the deposited data

Results flagged for a closer look

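Of 32 sets of values tested for a dog apart from the rest of its group, 6 held one by Dixon's criterion. For normally distributed values chance gives about 1 in 20. The CPM values and shares were not transformed and many are skewed, so the chance rate here is not known. H1 had 1711 CPM of CXCR4 in neutrophils, against 219 to 479 CPM in the other healthy dogs, and the thinned share of its neutrophils with a CXCR4 UMI was 60.4% against 17.3% to 32.7%. H2 had 49.1 CPM of CCR6 in non-naïve CD4 T cells, against 12.8 to 26.3 CPM, and a share of 3.99% against 0.964% to 2.11%. The level and the share of a gene in a class are measured on the same cells, so the flags of H1, and likewise those of H2, are not separate. The share of naïve CD4 T cells of OS4 with CCR7 was 15.5%, against 26.6% to 36.0% in the other dogs with osteosarcoma. H4 had CCR4 in 0.502% of its non-naïve CD4 T cells, against 0% to 0.184% in the other healthy dogs.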

How the results depend on the processing

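No receptor was called between the groups in any class fitted under the 12 other settings or the 17 fits that each left out 1 dog. The replicate block has no fit for NK cells. Detection shares gave 0 calls throughout, but a single gene could not pass that test's adjustment, so this says nothing about stability. The count of all genes called was 2 over the 8 classes. It was 5 with DESeq2, 16 with no low-count filter, 0 with at least 10 cells per dog and 6 with age class as a covariate. It was 0 with doublets kept, 1 with another clustering seed and 1 to 5 without single dogs. With a replicate block it was 14, but over the classes without NK cells, which held both calls of the main fit. The cause of these changes was not tested. Replicate numbers name different dogs and pair nothing, and with the block no receptor was called. The 17 neighbour differences over the 8 classes became 0 in healthy dogs alone, where 7 dogs are too few for 56 pairs, and 13 to 21 elsewhere; the 8 over CD4 clusters became 0 in healthy dogs alone, 15 of 48 with all 8 members and 6 to 8 elsewhere. CX3CR1 was highest in NK cells instead of effector CD8 T cells with doublets kept, with no correction across dogs and with another seed.

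The signs of 4 receptors turned, with no receptor called. CCR4 in non-naïve CD4 T cells became 0.084 with age class, 0.064 with the replicate block and ran from -0.158 to 0.153 without single dogs, above 0 without H4, H7, OS1, OS4 or OS10. CCR6 there ran from -0.230 to 0.070, above 0 without H2. CXCR4 in neutrophils became -0.343 with age class and ran from -0.154 (without OS2) to 0.887 (without H1). CXCR5 in B cells became 0.0087 with DESeq2, 0.0108 with its size factors, 0.0073 with filterByExpr, 0.0083 with age class and 0.0061 with the replicate block, and ran from -0.117 to 0.153 without single dogs, above 0 in 8 of the 17 fits. Depth limits CCR4 and CXCR3 most, at 237 and 322 UMIs, and NK cells have 3 dogs per group.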

Other observations

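Rarer classes, with at least 10 cells per dog, held receptors in patterns of their own. Double-negative T cells averaged 263 ± 70.2 CPM of CCR7 and 335 ± 203 CPM of CXCR4 (n = 17), and no CCR6, CCR4 or CCR2 UMI was found in their 859 cells. Gamma delta T cells averaged 25.5 ± 22.8 CPM of CCR6 but 4.16 ± 5.83 CPM of CCR7 (n = 16). Conventional dendritic cells carried CCR6 at 15.2 ± 13.7 CPM, CCR2 at 7.39 ± 3.69 CPM and CX3CR1 at 10.2 ± 6.07 CPM (n = 16). This class included a cluster of 267 cells led by FGF12 and GPHA2, which the study lists for a separate type, pre-dendritic cells. Plasmacytoid dendritic cells carried CCR2 at 12.1 ± 7.57 CPM, CCR7 at 15.8 ± 4.81 CPM and CCR4 at 4.58 ± 4.15 CPM (n = 10). Plasma cells kept CCR6 at 13.6 ± 5.87 CPM, with CXCR4 at 6.38 ± 4.27 CPM and 1 CXCR5 UMI in all (n = 13). CXCR4 averaged 392 ± 364 CPM in eosinophils and basophils, from 0 to 1503 CPM (n = 16), and 314 ± 107 CPM in neutrophil-like cells with CAMP and MMP8 (n = 8). None of these differences was tested.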
